A study of Mus musculus with 12 samples.

Results

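The genes that encode collagen chains were examined in whole cortex and whole cerebellum of SCA1 KI mice, a knock-in model of spinocerebellar ataxia type 1. A gene was included if its symbol consisted of Col, a type number, the letter a and a chain number, and if it had reads in at least 1 library. This rule, which uses names and not differences, gave 44 genes of the 15759 entries in the table of normalized read counts. Of these, 43 had a mean of at least 10 normalized counts over the 12 libraries and were tested, among 15369 tested genes. The other member was Col10a1, the collagen of hypertrophic cartilage, with a mean of 9.30.

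Collagens are extracellular matrix proteins built from 3 chains wound into a triple helix, and each type is made from its own chain or set of chains. The fibrillar types form tissue fibrils, the network types IV and VIII form sheets such as the basement membrane around blood vessels, and type VI forms beaded filaments. FACIT collagens attach to fibrils or to matrix near cells, transmembrane collagens sit in the plasma membrane, and multiplexins carry sugar chains in basement membranes. Brain tissue holds little fibrillar matrix, so that meninges and vessels are well-known sources of collagen there, while several non-fibrillar collagens are known to be made by neurons.

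The 12 libraries of poly-adenylated RNA came from C57BL/6J mice at 12 weeks of age, with 3 libraries in each of 4 groups: WT cortex, SCA1 KI cortex, WT cerebellum and SCA1 KI cerebellum. SCA1 KI mice carry Atxn1 154Q/2Q, that is 1 Atxn1 allele expanded to 154 glutamine codons beside 1 allele with 2, and express it from the gene's own locus. The labels give male mice, whereas the methods of the study describe both sexes, and neither states that the 3 libraries of a group came from separate mice, so p-values measure the spread between these libraries, which may be technical. The cerebellar libraries belong to an earlier data set of the same laboratory, and region and experiment therefore cannot be told apart. In whole tissue, fewer cells of a type and less RNA per cell cannot be told apart either.

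Between 29520855 and 51311309 reads fell on genes per library, and collagen genes took 0.0375% to 0.0557% of them. Atxn1, the targeted gene, spanned 6521 to 8147 normalized counts in WT cortex and 4604 to 7249 in SCA1 KI cortex, and differed in neither region (adjusted p = 0.132 in cortex and 0.837 in cerebellum, limma). The count does not separate the 2 alleles and so does not check the genotype labels. The summed count of 10 cerebellar neuron markers was 156491 to 215173 in cerebellum and 6626 to 8973 in cortex, as the labels of region require. The libraries within a region were not alike in makeup. In cerebellum the summed count of 14 choroid plexus markers ranged from 1619 in SCA1 KI library 1 to 81871 in SCA1 KI library 5, and that of 14 midbrain and thalamus markers was 10849 to 16064 in WT against 6771 to 7192 in SCA1 KI. Among cortical libraries, WT library B had the highest sums of striatal markers (29636, against 9729 to 17341 in the other libraries) and of oligodendrocyte markers (144116, against 86559 to 105108). The midbrain and thalamus sum was 3783 to 5232 in SCA1 KI cortex and 3123 to 3438 in WT cortex, the reverse of cerebellum. Of its 13 tested genes 4 were higher and 2 lower in SCA1 KI cortex (4.82% and 10.8% of all genes). Its marker Shox2, at 0 in every WT cortical library, had 16.2 to 51.4 counts in SCA1 KI cortex, and the part of these cells in the cortical differences was not tested.

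Collagen levels were first compared between genes. Levels are given as normalized counts per kb of all annotated exons of a gene merged, since a long transcript yields more reads. In WT cortex 5 genes stood above the rest and together made up 53.9% of the summed collagen level. These were Col4a2 with 298 ± 68.1 (SD, n = 3), Col6a1 with 296 ± 82.0, Col19a1 with 236 ± 30.3, Col4a1 with 219 ± 63.5 and Col25a1 with 218 ± 29.7. Neighbours among these 5 overlapped in their libraries. Col25a1, the lowest of them, did not overlap the next gene, Col5a1 (100 ± 51.3), whereas Col4a1 did, with 146 in its lowest library against 160 in the highest of Col5a1. The order depends on this length, since exons of minor transcripts add to it. Per kb of the longest transcript the same 5 genes led, but Col25a1 was the first of them with 421 ± 57.4, overlapping Col6a1 (317 ± 87.6), and Col1a2 (123 ± 25.2) and Col11a2 (114 ± 22.2) came before Col5a1 (101 ± 51.9). Col4a1 and Col4a2 encode the ubiquitous basement membrane chains, and Col6a1 an obligatory chain of type VI. Col19a1 encodes a FACIT-type collagen made by interneurons and known for a part in synapse formation, and Col25a1 a neuronal transmembrane collagen that was found as a component of amyloid plaques.

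The order was different in WT cerebellum. Col18a1, whose protein is the source of the fragment endostatin, led with 470 ± 82.5 per kb and was followed by Col9a3, a chain of the cartilage FACIT type IX, with 365 ± 60.9. Both lay above the next gene, Col9a2, at 161 ± 8.83, in all 3 libraries. Col4a1 (143 ± 8.60), Col4a2 (133 ± 17.0) and Col19a1 (131 ± 18.7) followed and overlapped one another. Per kb of the longest transcript Col18a1 (590 ± 104) and Col9a3 (461 ± 77.0) again led, but Col1a2 was next with 250 ± 38.4. Multiplexins took 18.9% of the summed collagen level in WT cerebellum and 2.37% in WT cortex, whereas beaded filament and anchoring collagens took 5.69% and 17.3%. Other classes were led by Col5a1 (100 ± 51.3) and Col11a2 (100 ± 19.5) among fibrillar chains in cortex, and by Col1a2 (108 ± 16.5) and Col5a1 (85.0 ± 16.1) in cerebellum. In cerebellum Col1a1 (83.8 ± 18.0) was close to Col5a1. Per kb of the longest transcript Col1a2 led the fibrillar chains in cortex too (123 ± 25.2). By that length Col27a1 (92.8 ± 12.8) and Col1a1 (92.7 ± 19.9) came before Col5a1 (85.8 ± 16.3) in cerebellum. After Col6a1, which stood at 79.1 ± 20.1 in cerebellum, Col6a2 was the next filament chain in both regions (56.0 ± 7.35 in cortex and 32.1 ± 12.0 in cerebellum). Col23a1, a transmembrane collagen, had 80.3 ± 15.2 in cortex and 119 ± 6.93 in cerebellum, and the multiplexin Col15a1 36.3 ± 8.61 and 38.3 ± 6.04. The summed level of all 44 genes was 2695 ± 18.2 per kb in WT cerebellum and 2350 ± 350 in WT cortex.

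**Figure D1:**
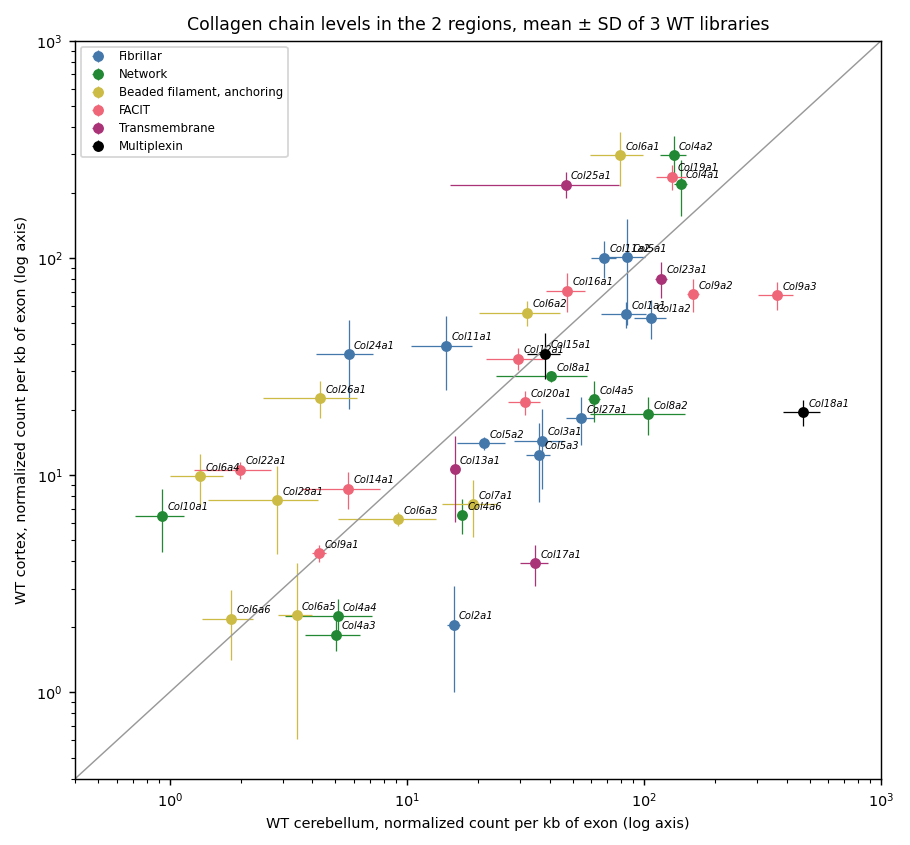
Mean normalized count per kb of exon of each of the 44 collagen chain genes in WT cerebellum (horizontal, log axis) against WT cortex (vertical, log axis), with bars of 1 SD over 3 libraries, colours for structural class and a line of equal level. Col18a1 and Col9a3 lie farthest to the right, at 470 and 365 in cerebellum, and Col4a2 and Col6a1 lie highest, at 298 and 296 in cortex.

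Most collagen genes differed between the 2 regions of WT mice, as most genes did. An LFC here is the log2 fold change of the normalized count plus 1, fitted with limma, and calls required an adjusted p under 0.05 and an LFC beyond 0.25 in either direction. Of the 43 tested members 33 were called, or 76.7%, beside 61.7% of all 15369 genes. Of these, 14 were higher in cortex, beside 31% of all genes, and 19 in cerebellum, beside 30.7%. Libraries of the 2 regions were fully apart for 13 members higher in cortex (35.1% of all genes) and 19 higher in cerebellum (34.8% of all genes), 69.9% of all genes in either direction. The median absolute LFC was 1.14 over the members and 0.45 over all genes.

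Among network collagens the 2 common chains of type IV were higher in cortex, and the rarer chains in cerebellum. Col4a2 was 2.20-fold higher in cortex (LFC 1.14, SE 0.22) and Col4a1 1.49-fold higher (LFC 0.57, SE 0.22, adjusted p = 0.0354), the latter with overlapping libraries. Col4a3, Col4a4, Col4a5 and Col4a6, the chains of specialised basement membranes such as those of the kidney glomerulus and skin, were 2.15-fold to 2.79-fold higher in cerebellum. Col8a2, a chain of the corneal Descemet membrane, was 5.14-fold higher in cerebellum, with 422, 685 and 293 normalized counts in WT cerebellum (libraries 2, 4 and 6) and 76.0, 75.3 and 106 in WT cortex (libraries B, C and D). The call for Col4a1 was lost without WT cortex library B or C (adjusted p = 0.143 and 0.129), without WT cerebellum library 4 or 6 (0.0841 and 0.0824), or without both cerebellar libraries of highest choroid plexus sum.

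Fibrillar chains fell on both sides. Col1a2 and Col3a1, chains of the main fibrils of skin, bone and vessel walls, were 2.04-fold and 2.69-fold higher in cerebellum, and Col1a1 did not pass the test (LFC −0.59, adjusted p = 0.0529). Col2a1, the cartilage collagen, was 7.94-fold higher in cerebellum, where its libraries gave 153, 136 and 148 normalized counts against 29.7, 11.1 and 15.9 in cortex. Col5a3 and Col27a1 were 3.04-fold and 2.99-fold higher in cerebellum and Col5a2 1.48-fold. Col24a1 was 6.01-fold, Col11a1 2.64-fold and Col11a2 1.46-fold higher in cortex. Markers of meningeal and perivascular fibroblasts, cells known to make fibrillar collagen, were higher in cerebellum for 7 and in cortex for 2 of 16 genes (30.7% and 31% of all genes). Their sums were 10608 to 16524 in WT cerebellum and 8323 to 10614 in WT cortex. Choroid plexus markers were higher in cerebellum for 13 of 14 genes and in cortex for none, with sums of 21551 to 78664 and 392 to 1975. All 8 ependyma markers were higher in cerebellum. The part of these cells in the differences between regions was not tested.

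Of the 9 beaded filament and anchoring genes 5 were higher in cortex and 1 in cerebellum (31% and 30.7% of all genes). Col6a1 was 3.72-fold higher in cortex, with 1703, 1175 and 1017 normalized counts in cortical libraries B, C and D against 445, 274 and 321 in cerebellar libraries 2, 4 and 6. Col6a2 was 1.81-fold, Col6a4 6.81-fold, Col26a1 5.36-fold and Col28a1 2.68-fold higher in cortex. Col7a1, which encodes the anchoring fibril of skin, was 2.57-fold higher in cerebellum. Col6a3, Col6a5 and Col6a6 did not pass the test.

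Among FACIT collagens Col9a3 was 5.38-fold and Col9a2 2.39-fold higher in cerebellum and Col20a1 1.45-fold. Col22a1, known from tissue junctions of muscle and tendon, was 5.32-fold higher in cortex, Col19a1 1.80-fold and Col16a1 1.49-fold. Col9a1, the third chain of type IX, was low and near equal, at 22.1 ± 2.03 and 21.7 ± 1.40 normalized counts in WT cortex and cerebellum. Of the transmembrane collagens Col25a1 was 5.33-fold higher in cortex, while Col17a1, a hemidesmosome protein of skin, was 8.60-fold, Col13a1 1.57-fold and Col23a1 1.49-fold higher in cerebellum. The libraries of Col13a1 overlapped between regions, and its call was lost in 8 of 21 alternatives, with edgeR (adjusted p = 0.0576) and DESeq2 (0.0782) among them. The largest difference of all members was that of the multiplexin Col18a1, 23.9-fold higher in WT cerebellum (LFC −4.58, SE 0.13, adjusted p = 2.57e-11), with 2636, 3559 and 3704 normalized counts there and 153, 116 and 140 in WT cortex. The other multiplexin, Col15a1, did not pass the test (LFC −0.10, 95% interval −0.51 to 0.31).

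**Figure D2:**
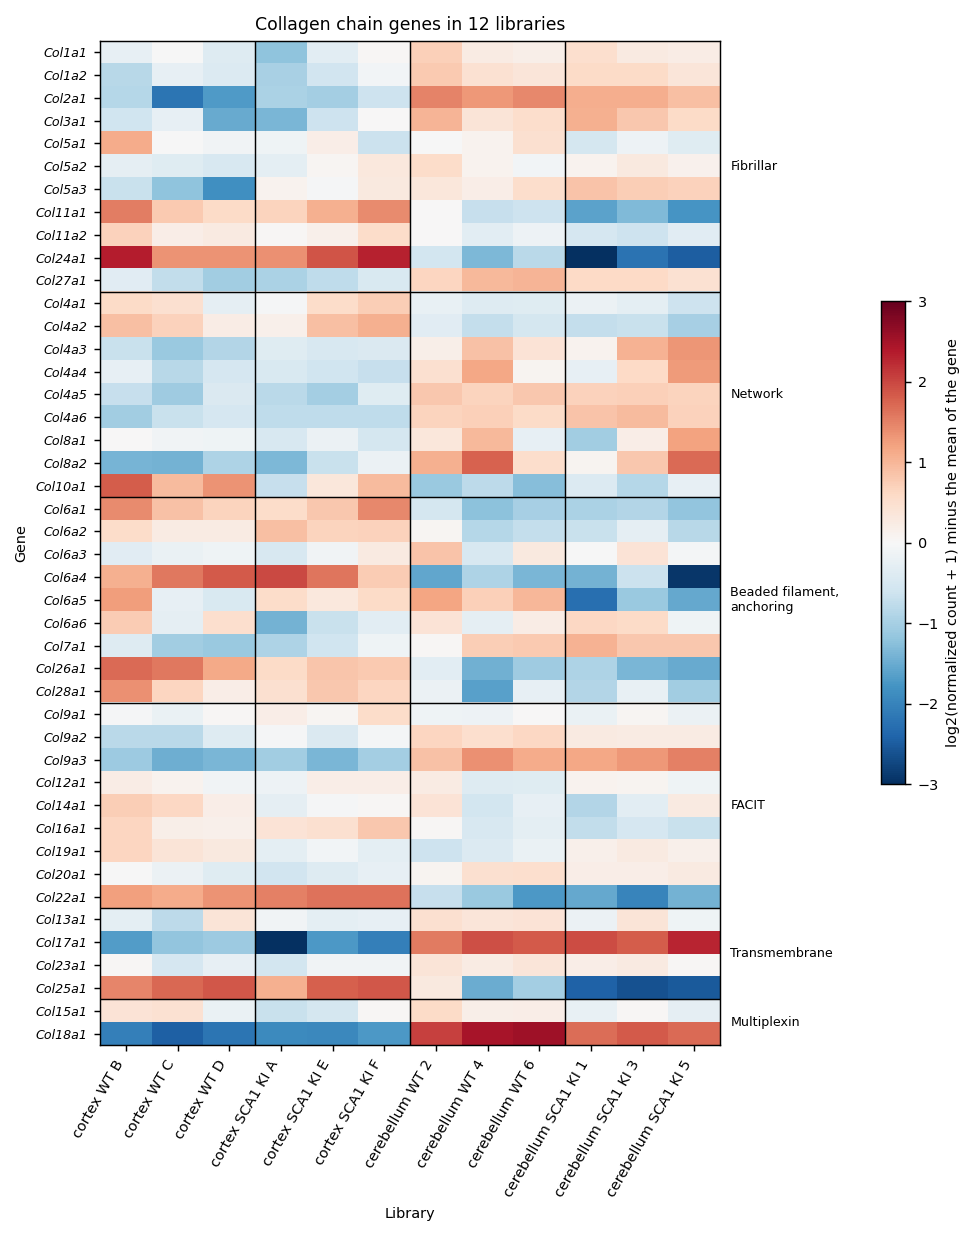
Log2(normalized count + 1) of each of the 44 collagen chain genes minus its mean over the 12 libraries, from blue (lower) to red (higher), with genes in rows by structural class and libraries in columns by group. Black lines part the groups and classes. Cortical and cerebellar libraries differ in most rows, and Col18a1, Col17a1 and Col9a3 are red in all 6 cerebellar libraries.

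By genotype, 3 collagen genes passed the test in cortex. Of 43 tested members 2 rose and 1 fell in SCA1 KI cortex, or 6.98%, beside 15.6% of all genes (4.82% higher and 10.8% lower). Their median LFC was 0.00 and that of all genes 0.00. At an unadjusted p under 0.05 there were 10 members, beside 30.5% of all genes. SCA1 KI and WT libraries were fully apart for 12 members (30.9% of all genes), 6 of them higher (13% of all genes) and 6 lower (18% of all genes). Without WT library B, which stood apart in striatal and oligodendrocyte markers, the counts were the same but the genes were not, since Col9a2 no longer passed (adjusted p = 0.0756) and Col2a1 was called higher (LFC 1.09, adjusted p = 0.0046). With each library's trend on length and GC removed, 6 members rose and 1 fell, beside 15.9% of all genes called, and the 4 added were Col18a1, Col2a1, Col5a2 and Col16a1 (LFC 0.58, 0.92, 0.52 and 0.44). With DESeq2, 2 rose and 4 fell.

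Col19a1 fell in SCA1 KI cortex. Its normalized counts were 1863, 1547 and 1470 in WT libraries B, C and D and 973, 1124 and 968 in SCA1 KI libraries A, E and F. Each of the 3 SCA1 KI libraries was lower than the lowest WT library. The mean was 1627 ± 209 (SD, n = 3) in WT and 1022 ± 89.1 in SCA1 KI, an LFC of −0.67 (SE 0.11, adjusted p = 0.0014), or 1.59-fold lower. The call held in all 23 alternative analyses, with an LFC between −0.74 and −0.56.

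Neuron and astrocyte markers moved with the same groups. Summed counts of 13 forebrain interneuron markers were 64386 to 68672 in WT and 40735 to 48929 in SCA1 KI cortex, with 5 of 13 genes lower and none higher, and those of 10 cortical excitatory neuron markers 46969 to 49764 and 32420 to 39890, with 3 of 10 lower and none higher. Sums of 9 astrocyte markers were 300224 to 302526 and 154349 to 217618, with 6 of 9 lower and none higher. Of all genes, 10.8% were called lower and 4.82% higher in cortex. Their part in the change of Col19a1 was not tested.

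Col5a3, a minor chain of the fibrillar type V, rose in SCA1 KI cortex. Its counts were 119, 81.9 and 52.4 in the WT libraries and 206, 185 and 232 in the SCA1 KI libraries, without overlap. The mean went from 84.4 ± 33.3 to 208 ± 23.2, an LFC of 1.36 (SE 0.22, adjusted p = 0.0012) or 2.57-fold, and the call held in all 23 alternatives. The partner chains of type V did not pass the test: Col5a1 had an LFC of −0.52 (adjusted p = 0.248) and Col5a2 of 0.40 (adjusted p = 0.145). In cerebellum Col5a3 had 242, 220 and 276 counts in WT and 343, 316 and 307 in SCA1 KI, which again did not overlap but did not pass the test (LFC 0.39, adjusted p = 0.414), and the difference between regions did not pass either (adjusted p = 0.0842).

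Col9a2 rose in SCA1 KI cortex by a smaller margin. Its counts were 189, 190.4 and 253 in WT libraries B, C and D and 326, 246 and 317 in SCA1 KI libraries A, E and F, so that SCA1 KI library E lay below WT library D. The LFC was 0.49 (SE 0.13, adjusted p = 0.0212). The call was lost when each region was fitted on its own (adjusted p = 0.0973), in which case the fall in cerebellum passed (LFC −0.34, adjusted p = 0.0349), and without WT library B (0.0756), WT library C (0.0847), SCA1 KI library A (0.0725) or SCA1 KI library F (0.0691). Col9a3, its partner chain, had an LFC of 0.17 (adjusted p = 0.483).

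Low members with large differences in cortex did not pass the test. Col17a1 had 17.8, 25.5 and 27.3 counts in WT and 3.94, 17.2 and 13.5 in SCA1 KI (LFC −1.14, adjusted p = 0.0563), and Col6a6 had 26.1, 12.2 and 21.6 and 4.93, 9.11 and 11.7 (LFC −1.14, adjusted p = 0.0585). Neither gene overlapped between genotypes. Col26a1 (LFC −0.74, adjusted p = 0.0780) and Col15a1 (LFC −0.60, adjusted p = 0.0684) were also near the threshold, and DESeq2 called Col26a1, Col17a1 and Col15a1 lower (adjusted p = 0.0206, 0.0276 and 0.0426). No network collagen was called in cortex. Col4a1 had an LFC of 0.16 (95% interval −0.27 to 0.60) and Col4a2 of 0.10 (−0.33 to 0.52). No gene among 14 endothelial, 11 mural and 16 fibroblast markers was called by genotype in either region. The endothelial sum was nevertheless lower in every SCA1 KI than in every WT cortical library (18028 to 19324 against 20717 to 21114), with an LFC of −0.29 to −0.02 for the 14 genes, and its part in the cortical values was not tested.

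**Figure D3:**
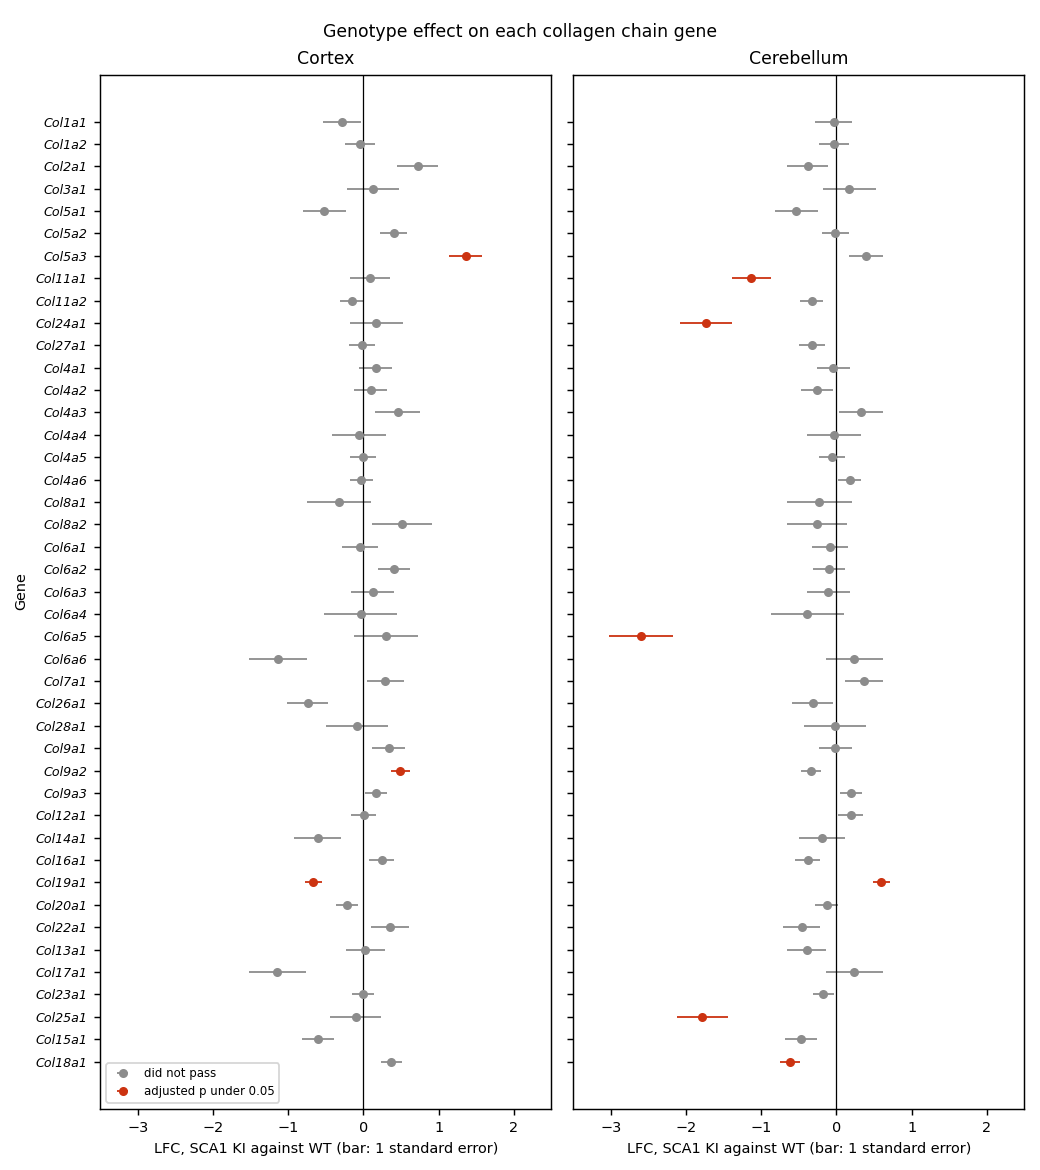
LFC of SCA1 KI against WT for each of the 43 tested collagen chain genes in cortex (left) and cerebellum (right), with bars of 1 standard error and red points for the genes that passed the test. In cortex 3 points are red, with Col5a3 farthest right at 1.36, and in cerebellum 6 are red, with Col6a5 farthest left at −2.60.

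In cerebellum most of the collagen genes that passed the test fell, as did most of all called genes. Of the 43 tested members 5 fell and 1 rose in SCA1 KI cerebellum, or 14.0%, beside 5.36% of all genes (4.44% lower and 0.917% higher). The median LFC of the members was −0.13 and that of all genes 0.00, and 9 members had an unadjusted p under 0.05, beside 17.3% of all genes. SCA1 KI and WT libraries were fully apart for 15 members (31.8% of all genes), 12 of them lower (17.5% of all genes) and 3 higher (14.3% of all genes). Without WT library 2, which had the highest midbrain and thalamus sum, 4 members fell and 1 rose. The 5 that fell became 2 without SCA1 KI library 1, 3 without WT library 6 or SCA1 KI library 5, and 3 without WT library 4 and SCA1 KI library 5 together. The genes that fell were Col6a5, Col25a1, Col24a1, Col11a1 and Col18a1, and Col19a1 rose.

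Col25a1 had 1071, 310.3 and 433 normalized counts in WT libraries 2, 4 and 6 and 163, 142 and 151 in SCA1 KI libraries 1, 3 and 5. The WT libraries were unequal, with library 2 far above the other two, and all lay above the SCA1 KI libraries. The LFC was −1.78 (SE 0.34, adjusted p = 0.0089), or 3.44-fold lower. In cortex, where the gene was more abundant, the libraries overlapped (2408, 2879 and 3170 against 1839, 3044 and 3161) and the LFC was −0.10 (adjusted p = 0.872). Without WT library 2 the cerebellar LFC was −1.27, and the call held in all 23 alternatives.

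Col24a1, a fibrillar collagen known from developing bone and cornea, had 53.9, 30.5 and 45.4 counts in WT cerebellum and 7.58, 16.5 and 13.6 in SCA1 KI, without overlap. Its LFC was −1.73 (SE 0.35, adjusted p = 0.0113), or 3.33-fold lower, and the call was lost without SCA1 KI library 1 (LFC −1.44, adjusted p = 0.0563). Col11a1, a fibrillar chain that limits fibril diameter, had 247, 151 and 160 counts in WT and 80.0, 97.5 and 71.6 in SCA1 KI, again without overlap. Its LFC was −1.13 (SE 0.27, adjusted p = 0.0255), or 2.19-fold lower. The call for Col11a1 was lost without WT library 2 (LFC −0.91, adjusted p = 0.108), WT library 6 (0.0504), SCA1 KI library 1 (0.0927) or SCA1 KI library 5 (0.102), and without WT library 4 and SCA1 KI library 5 together (0.0857).

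Col6a5, an alternative chain of type VI, was among the least abundant members, with 37.4, 26.9 and 32.6 counts in WT and 2.53, 6.87 and 4.84 in SCA1 KI. These counts rested on 41, 22 and 28 reads in WT and on 3, 10 and 5 reads in SCA1 KI. The LFC of −2.60 (SE 0.43, adjusted p = 0.0032), or 6.06-fold lower, was the largest of any member by genotype. The call held in all 22 alternatives that tested the gene. The common chains Col6a1, Col6a2 and Col6a3 did not pass the test in cerebellum, with LFCs of −0.09, −0.09 and −0.11.

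These 4 genes had the order of the midbrain and thalamus markers among the WT cerebellar libraries, but none of them did among the SCA1 KI libraries. The marker sum was 16064, 10849 and 13014 in WT libraries 2, 4 and 6 and 6791, 6771 and 7192 in SCA1 KI libraries 1, 3 and 5. Of its 13 tested genes 9 were lower in SCA1 KI cerebellum and none higher (4.44% and 0.917% of all genes). The markers Shox2, a transcription factor gene of thalamic and midbrain neurons, and Tcf7l2 had 120 to 210 and 1480 to 2404 counts in WT cerebellum, and at most 9.68 and 249 in SCA1 KI cerebellum, with Shox2 at 0 in library 3. Col11a1, Col24a1, Col25a1 and Col6a5 all had the order of the marker sum in WT, with library 2 highest and library 4 lowest. In all, 23 of 43 members had this order, beside 23.0% of all tested genes, and WT library 2 was the highest of the 6 cerebellar libraries for 24 members. Col9a2 also had it, and Col18a1 and Col19a1 did not. The order was shared by oligodendrocyte lineage marker sums (272793, 182965 and 203048 in WT libraries 2, 4 and 6). It was also that of astrocyte (246935, 230961 and 242816) and microglia sums (7886, 5989 and 6348). Each of these sums was lower in every SCA1 KI than in every WT library. Endothelial and mural sums had the order in WT, and cerebellar neuron markers the reverse. The part of any of these cells in the 4 differences was not tested.

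Upstream stretches are shown for the 4 genes that fell in SCA1 KI cerebellum and had the marker order in WT, an order that 23 of 43 members had. The stretches are read 5′ to 3′ on the strand of the gene, from RefSeq on GRCm38.p6, and each ends at the base before the annotated start. Capitals mark the GC box GGGCGG and the CCAAT box, searched on both strands, so that CCGCCC and ATTGG are the same boxes on the other strand. The TATA box TATAAA was searched likewise. The stretches are chr3:114030290-114030539 on the plus strand for Col11a1, chr3:145292222-145292471 on the plus strand for Col24a1, chr3:130180595-130180844 on the plus strand for Col25a1 and chr9:105960644-105960893 on the minus strand for Col6a5. None overlaps an annotated exon, and that of Col25a1 lies within the longer GENCODE gene model.
Col11a1: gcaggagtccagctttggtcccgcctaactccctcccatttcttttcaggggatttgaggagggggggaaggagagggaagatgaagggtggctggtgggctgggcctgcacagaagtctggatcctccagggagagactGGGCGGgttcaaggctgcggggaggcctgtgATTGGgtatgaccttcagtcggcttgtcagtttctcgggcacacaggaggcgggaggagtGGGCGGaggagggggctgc
Col24a1: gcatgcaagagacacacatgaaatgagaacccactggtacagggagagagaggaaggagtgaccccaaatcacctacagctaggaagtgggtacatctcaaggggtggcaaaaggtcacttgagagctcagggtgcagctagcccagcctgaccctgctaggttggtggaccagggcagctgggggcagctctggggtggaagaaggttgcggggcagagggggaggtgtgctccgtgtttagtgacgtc
Col25a1: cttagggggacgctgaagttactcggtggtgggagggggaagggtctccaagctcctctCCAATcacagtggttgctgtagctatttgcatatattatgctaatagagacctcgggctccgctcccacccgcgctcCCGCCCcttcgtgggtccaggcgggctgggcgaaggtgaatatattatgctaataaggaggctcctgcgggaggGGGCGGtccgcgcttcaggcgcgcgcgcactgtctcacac
Col6a5: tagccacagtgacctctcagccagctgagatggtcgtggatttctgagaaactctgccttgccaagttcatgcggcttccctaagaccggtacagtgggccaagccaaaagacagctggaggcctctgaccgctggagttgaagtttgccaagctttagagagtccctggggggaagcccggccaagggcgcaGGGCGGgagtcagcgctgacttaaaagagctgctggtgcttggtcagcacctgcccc

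Col11a1 and Col25a1 held 2 GC boxes and 1 CCAAT box each, Col6a5 held 1 GC box, Col24a1 held neither, and no TATA box was found in the 4 stretches. Promoters were given for 35 of the 44 members. In 250 bases before the start, 21 of these 35 members held a GC box, 13 a CCAAT box and 5 a TATA box. Of 32851 promoters of all genes, 32.7% held a GC box, 33.8% a CCAAT box and 12.4% a TATA box. A match is a match of letters and does not show that a factor was bound.

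Col18a1 fell from a high level. It had 2636, 3559 and 3704 counts in WT cerebellum (libraries 2, 4 and 6) and 2041, 2304 and 2066 in SCA1 KI (libraries 1, 3 and 5), without overlap. The mean went from 3300 ± 580 to 2137 ± 145, an LFC of −0.61 (SE 0.13, adjusted p = 0.0177), or 1.53-fold lower. The call was lost without WT library 4 (adjusted p = 0.0561), WT library 6 (0.0821), SCA1 KI library 1 (0.0837) or SCA1 KI library 5 (0.0716), and without WT library 4 and SCA1 KI library 5 together (LFC −0.53, adjusted p = 0.157). In each of these analyses the LFC was between −0.59 and −0.52. The summed cerebellar neuron markers were 156491, 215173 and 201787 in the WT libraries and 191823 to 194062 in SCA1 KI, so that WT library 2 was lowest among WT for both the markers and Col18a1, and the SCA1 KI sums lay within the WT range. Other sums did fall below it. Astrocyte markers summed to 230961 to 246935 in WT and 192916 to 196851 in SCA1 KI cerebellum (2 of 9 lower), oligodendrocyte lineage markers to 182965 to 272793 and 157255 to 157470 (1 of 11 lower), and microglia markers to 5989 to 7886 and 5585 to 5801 (1 of 9 lower). In cerebellum 4.44% of all genes were called lower. None of these markers was higher, and their part in the fall of Col18a1 was not tested.

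Col19a1 rose in SCA1 KI cerebellum, with 776, 899 and 1033 counts in WT and 1321, 1431 and 1324 in SCA1 KI. Each SCA1 KI library exceeded the highest WT library, and the mean went from 903 ± 129 to 1359 ± 62.5. The LFC was 0.60 (SE 0.11, adjusted p = 0.0077), or 1.51-fold, and the call held in all 23 alternatives. The same gene had fallen in cortex, so that the 2 regions, 1.80-fold apart in WT (1627 against 903), lay at 1022 in SCA1 KI cortex and 1359 in SCA1 KI cerebellum. Forebrain interneuron markers were called lower for 4 of 13 genes and higher for none in SCA1 KI cerebellum (4.44% and 0.917% of all genes). Their sums were 67497 to 69868 in WT and 61849 to 63022 in SCA1 KI. In WT cortex the sum was 64386 to 68672. Of this list Sst had only 368 to 864 and Vip 81.5 to 130 counts in WT cerebellum. The sum therefore does not single out forebrain interneurons in cerebellum. Libraries were fully apart for 7 of the 13 that were lower (17.5% of all genes) and 2 that were higher (14.3% of all genes). The part of cells that express these genes in the rise of Col19a1 was not tested.

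**Figure D4:**
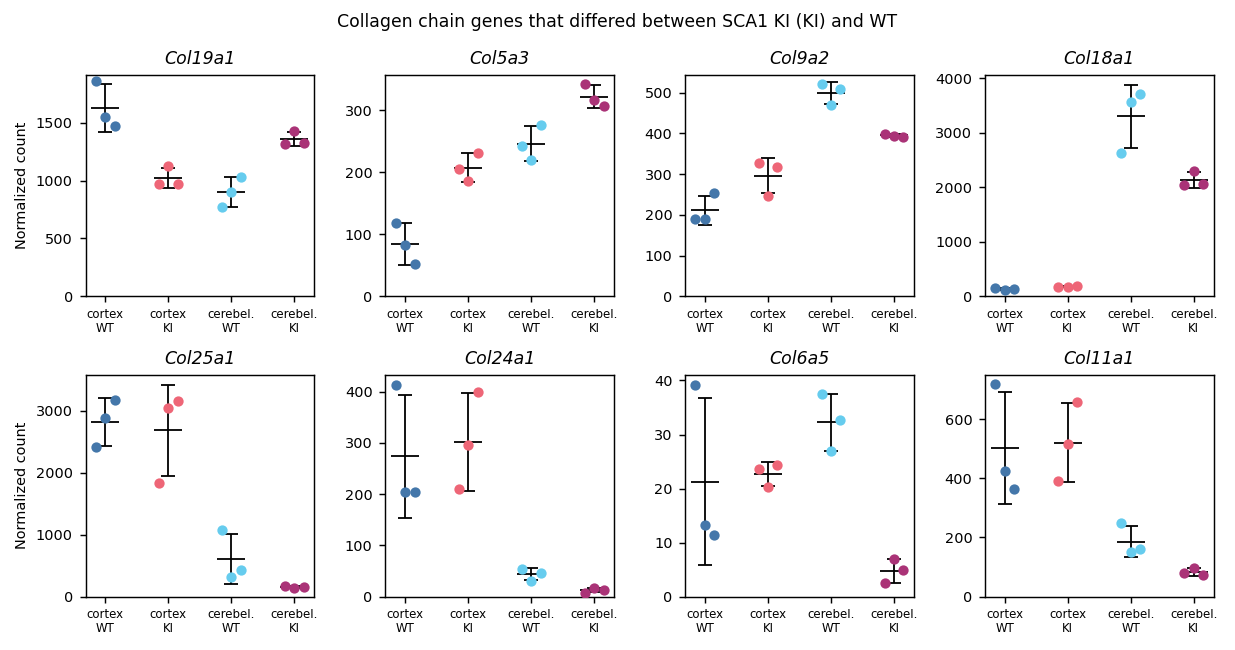
Normalized counts of the 8 collagen chain genes called by genotype, with 1 point per library and the mean and SD (n = 3) in black, on linear axes that start at 0. SCA1 KI is shortened to KI. Col19a1 is lower in SCA1 KI cortex (968 to 1124 against 1470 to 1863) and higher in SCA1 KI cerebellum (1321 to 1431 against 776 to 1033).

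Col19a1 lies at chr1:24261890-24587472 on the minus strand and Col5a3 at chr9:20770050-20815067 on the minus strand (GENCODE vM21, GRCm38). Both changes held in all 23 alternatives, and their upstream stretches are shown for comparison with the 4 above. They are chr1:24587473-24587687 for Col19a1 and chr9:20815068-20815317 for Col5a3, both on the minus strand.
Col19a1: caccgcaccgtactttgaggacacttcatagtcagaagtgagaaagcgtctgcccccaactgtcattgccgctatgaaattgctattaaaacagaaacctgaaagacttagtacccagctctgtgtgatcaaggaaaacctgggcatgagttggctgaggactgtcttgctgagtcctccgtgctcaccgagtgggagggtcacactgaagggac
Col5a3: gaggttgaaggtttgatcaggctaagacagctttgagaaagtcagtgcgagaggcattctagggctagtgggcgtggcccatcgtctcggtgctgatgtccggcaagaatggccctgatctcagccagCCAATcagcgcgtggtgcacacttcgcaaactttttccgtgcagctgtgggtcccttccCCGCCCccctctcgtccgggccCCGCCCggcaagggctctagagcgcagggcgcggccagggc

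Col19a1 held none of the 3 boxes, and Col5a3 held 2 GC boxes and 1 CCAAT box. Near Col19a1, on the other strand with 9205 bases between, lies Col9a1, which did not pass the test in either region (LFC 0.33 in cortex and −0.01 in cerebellum).

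The difference between the genotype effects was tested as the cortical minus the cerebellar LFC. Of the 43 members 5 passed, or 11.6%, beside 8.15% of all genes, 4 of them with a positive difference (3.26% of all genes) and 1 with a negative one (4.89% of all genes), and 13 had an unadjusted p under 0.05, beside 21.4% of all genes. Col19a1 had a difference of −1.26 (SE 0.16, adjusted p = 0.0007), from −0.67 in cortex to 0.60 in cerebellum, and it was called in both regions in opposite directions. Col18a1 had a difference of 0.99 (SE 0.19, adjusted p = 0.0069), with cortical counts of 153, 116 and 140 in WT and 170, 166 and 194 in SCA1 KI (LFC 0.37, adjusted p = 0.0757). Col9a2 had a difference of 0.83 (SE 0.19, adjusted p = 0.0158), with cerebellar counts of 521, 469 and 509 in WT and 399, 394 and 392 in SCA1 KI, which did not overlap (LFC −0.34, adjusted p = 0.191, or 0.0349 with each region fitted on its own).

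Col6a5 and Col24a1 also differed between regions, by 2.90 (SE 0.60, adjusted p = 0.0104) and 1.91 (SE 0.49, adjusted p = 0.0313). In cortex, Col6a5 had 39.2, 13.3 and 11.4 counts in WT and 23.7, 20.2 and 24.3 in SCA1 KI, and Col24a1 had 412, 204 and 205 in WT and 209, 296 and 400.1 in SCA1 KI. Both overlapped between genotypes there. The call for Col24a1 was lost in 8 of the 12 analyses that left out 1 library, with adjusted p up to 0.0858, those without WT library C, WT library D, SCA1 KI library E or SCA1 KI library F in cortex and without WT library 2, WT library 6, SCA1 KI library 1 or SCA1 KI library 5 in cerebellum. Col25a1 (1.68, adjusted p = 0.0527) and Col11a1 (1.21, adjusted p = 0.0681) did not pass with limma. Col25a1 passed with edgeR (0.0294), DESeq2 (0.0207) and the trend on length and GC removed (0.0299), and Col11a1 and Col5a3 passed with DESeq2 (0.0209 and 0.0222) and with that trend removed (0.0232 and 0.0275).

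Among the 43 tested members, 3 had the order of the choroid plexus markers in the cerebellar libraries of each genotype. Col8a1 had 298, 462 and 198 counts in WT libraries 2, 4 and 6 and 114, 271 and 549 in SCA1 KI libraries 1, 3 and 5. Col8a2 had 422, 685 and 293 in WT and 215, 352 and 655 in SCA1 KI. Col4a4 had 48.4, 78.2 and 36.1 in WT and 28.6, 52.2 and 84.2 in SCA1 KI. These 3 genes had the order of the choroid plexus marker sum in both genotypes (24579, 78664 and 21551 in WT and 1619, 27930 and 81871 in SCA1 KI), beside 2.89% of all tested genes. All 3 overlapped between genotypes, with LFCs of −0.23, −0.26 and −0.04 in cerebellum. In cortex, where the marker sum was 392 to 1975, none was called. The part of choroid plexus cells in the values of the 3 genes was not tested.

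**Figure D5:**
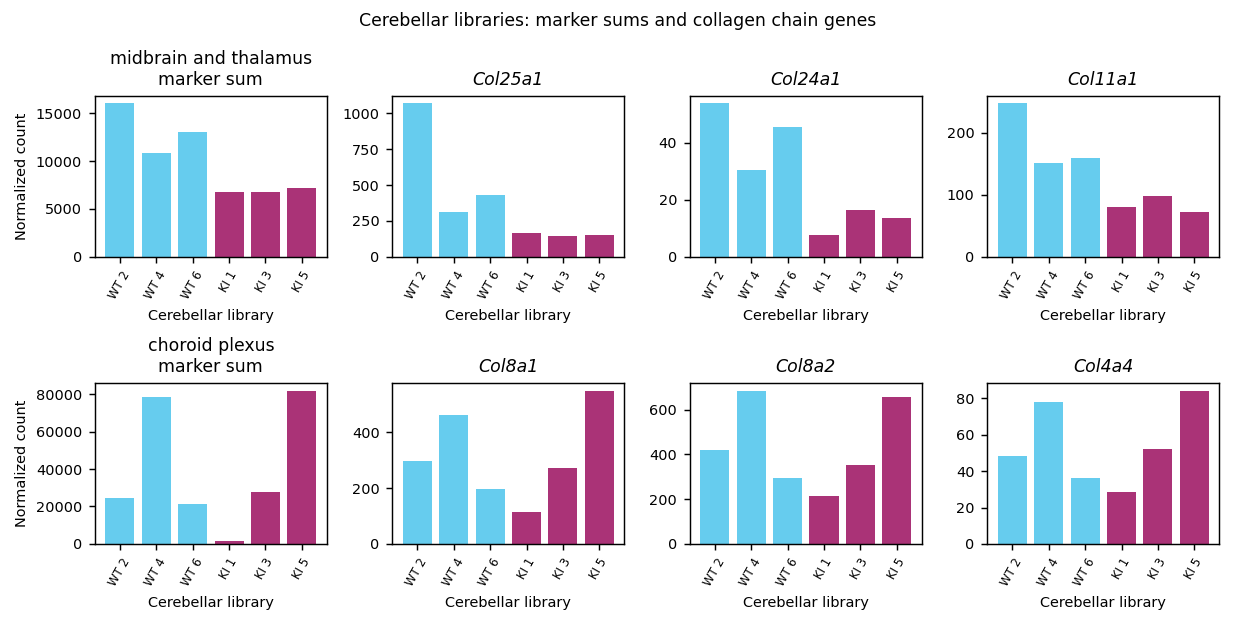
Normalized counts in the 6 cerebellar libraries (WT in light blue, SCA1 KI, shortened to KI, in purple; bars start at 0) of the summed midbrain and thalamus markers with Col25a1, Col24a1 and Col11a1 (upper row) and of the summed choroid plexus markers with Col8a1, Col8a2 and Col4a4 (lower row). In the upper row every WT bar is above every SCA1 KI bar, and in the lower row WT library 4 and SCA1 KI library 5 are the highest of their genotypes.

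Chains that assemble together, or whose genes lie side by side, were compared as ratios of their levels per kb of merged exons. The size of a ratio depends on this length, whereas its comparison between groups does not. Col4a1 and Col4a2 lie head to head on chromosome 8 with starts 21 bases apart. Their ratio was 0.73 ± 0.07 in WT cortex and 1.08 ± 0.08 in WT cerebellum, without overlap between libraries (0.65 to 0.80 against 1.01 to 1.17). In SCA1 KI it was 0.76 ± 0.04 and 1.26 ± 0.08, and the cerebellar libraries lay above those of WT (1.20 to 1.35). Reads on the 22 bases that the 2 genes share were not separated. Col4a3 and Col4a4 (starts 72 bases apart on chromosome 1) had a ratio of 0.83 ± 0.04 in WT and 1.20 ± 0.08 in SCA1 KI cortex, without overlap but at only 15.5 to 28.5 normalized counts for either gene, and 1.04 ± 0.29 and 1.32 ± 0.19 in cerebellum, where the libraries overlapped. No test was run on these ratios.

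The ratio of Col4a5 to Col4a6, which share a start region on chromosome X, was 3.49 ± 0.89 in WT cortex and 3.62 ± 0.36 in WT cerebellum. Col6a1 was 5.23 ± 0.78 times Col6a2 per kb in WT cortex and 2.53 ± 0.28 times in WT cerebellum, again without overlap. Per kb of the longest transcript their means were 317 and 95.0 in WT cortex and 84.5 and 54.4 in WT cerebellum. Col3a1 and Col5a2, neighbours on chromosome 1 on opposite strands, had ratios of 1.02 ± 0.38 and 1.77 ± 0.20. Col8a1 over Col8a2 was 1.54 ± 0.34 in WT cortex and 0.39 ± 0.01 in WT cerebellum, and Col9a2 over Col9a3 1.03 ± 0.24 and 0.45 ± 0.10. In cerebellum the ratio of Col9a2 to Col9a3 was 0.31 ± 0.04 in SCA1 KI, with all libraries below those of WT (0.27 to 0.35 against 0.35 to 0.55).

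Collagen genes varied more between libraries of a group than other genes. The median coefficient of variation was 20.4% over the members in WT cortex, beside 8.95% over all tested genes, 17.7% beside 9.67% in SCA1 KI cortex, 18.9% beside 7.45% in WT cerebellum and 11.9% beside 4.59% in SCA1 KI cerebellum. The members were also less abundant, with a median level of 150 normalized counts in WT cortex beside 829 over all genes. In cortex, SCA1 KI library F was the highest of the 6 libraries for 17 members and WT library B for 16, and SCA1 KI library A was the lowest for 15. The longest transcript of a member had a median of 5989 bases and 55.1% GC, beside 3368 bases and 49.8% over all matched genes.

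Genes that make, process, cut and bind collagen were counted by role. Of 22 genes for synthesis and folding in the endoplasmic reticulum, 3 rose in SCA1 KI cortex and none fell. They were the prolyl isomerase gene Fkbp14 (LFC 0.58, SE 0.09, adjusted p = 0.0008), the prolyl 3-hydroxylase gene P3h3 (listed as Leprel2, LFC 0.50, adjusted p = 0.0400) and the lysyl hydroxylase gene Plod2 (LFC 0.42, adjusted p = 0.0402). In SCA1 KI cerebellum 2 of the 22 fell, both of them subunits of prolyl 4-hydroxylase: P4ha3 (LFC −1.64, SE 0.35, adjusted p = 0.0158) and P4ha2 (LFC −0.66, SE 0.11, adjusted p = 0.0044). The effect differed between regions for Fkbp14, P4ha2 and P4ha3 (adjusted p = 0.0179, 0.0087 and 0.0334). Each count is to be read beside the 15.6% of all genes called in cortex and 5.36% in cerebellum.

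Of 12 tested genes for processing and cross-linking, Bmp1, the procollagen C-proteinase, fell in cortex (LFC −0.48, adjusted p = 0.0434), and none was called in cerebellum. The list for degradation, with 14 tested genes, held both proteases and metalloproteinase inhibitors. Mmp17, a membrane-type metalloproteinase, fell in both regions (LFC −0.72 and −0.68, adjusted p = 0.0008 and 0.0032). Of the inhibitor genes, Timp4 fell in cortex (LFC −0.34, adjusted p = 0.0154) and Timp2 in cerebellum (LFC −0.86, adjusted p = 0.0163). None of the 14 rose in either region. None of 8 tested collagen receptors was called in either region.

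Among basement membrane partners of type IV collagen, the laminin chain genes Lama3 (LFC −0.90, adjusted p = 0.0099) and Lamb3 (LFC −1.30, adjusted p = 0.0012) fell in cortex, and none of the 17 partners was called in cerebellum. Sparc, a collagen-binding glycoprotein, rose in cortex (LFC 0.49, adjusted p = 0.0120). Its effect differed between regions (difference 0.80, adjusted p = 0.0104), with means of 32233 in WT and 25919 in SCA1 KI cerebellum. Of 16 fibril-associated proteoglycans and glycoproteins Fbln2 fell in cortex (LFC −0.49, adjusted p = 0.0308) and none was called in cerebellum. Between WT regions the processing and cross-linking genes were higher in cerebellum for 9 and in cortex for 1 of 12, beside 61.7% of all genes called.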

How the data were processed

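Libraries of poly-adenylated RNA from whole cortex and whole cerebellum were sequenced as paired ends. Per the labels and the methods, the authors used STAR for alignment to mm10, featureCounts for counting and DESeq2 for normalization. The deposited signal of a gene in a library is its read count over the library's size factor. All values came out as whole reads within 0.1 read, and these reads served the count-based alternatives. Chi-square values per gene between libraries of one group were 7.43 to 36.0, above sampling noise, so each library was counted once.

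Genes with a mean of at least 10 were fitted with limma 3.58.1 (R 4.3.3, empirical Bayes with a mean trend) on log2(normalized count + 1) with 4 group means over both regions, and p-values were adjusted with Benjamini-Hochberg over 15369 genes. Because of the added 1, an LFC understates the change of low genes. Calls required an adjusted p under 0.05 and an LFC beyond 0.25 in either direction (adjusted p alone for the difference between regions). Alternatives were edgeR 4.0.16 and DESeq2 1.42.0 on the recovered reads, a pseudocount of 0.5 or 5, no filter or a minimum mean of 100, centring on the regional median, removal of each library's trend on length and GC, no LFC limit, each region on its own, and each library left out. Leaving out a library of 1 region could not move the genotype LFC of the other region, only its p-value. Without the LFC limit no call could be lost. The setting without both cerebellar libraries of highest choroid plexus sum and levels per kb of the longest transcript were chosen after seeing the data. The fits were tested on simulated data.

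GENCODE vM21 (GRCm38) gave coordinates, exon lengths and overlaps, and all 44 members matched. Older symbols in the lists were matched through RefSeq. Named were members called in any comparison, the 2 highest members per kb of each class, adjacent pairs and up to 4 called genes per role list. Other names, such as near-threshold members and those that followed the choroid plexus markers, were picked with their values known. The members and lists were chosen with earlier results of these data known. Some results of the lists are not reported here.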

Additional observations from a re-analysis of the deposited data

Results flagged for a closer look

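For 5 collagen chain genes the effect of genotype differed between cortex and cerebellum by the test of the difference itself (cortical minus cerebellar LFC, limma, adjusted over all tested genes). The difference was −1.26 for Col19a1, which fell in cortex and rose in cerebellum, with no overlap between genotypes in either region. It was 0.99 for Col18a1, 0.83 for Col9a2, 1.91 for Col24a1 and 2.90 for Col6a5, for which the cerebellar LFC was negative and the cortical LFC positive. Col18a1, Col24a1 and Col6a5 passed the genotype test in cerebellum but not in cortex, and Col9a2 passed it in cortex but not in cerebellum, whereas with each region fitted on its own it passed in cerebellum (LFC −0.34, adjusted p = 0.0349) but not in cortex (0.0973). For Col6a5 the SCA1 KI cerebellar libraries held 3, 10 and 5 reads. The midbrain and thalamus marker sum was lower in all SCA1 KI than in all WT cerebellar libraries (6771 to 7192 against 10849 to 16064). Col24a1, Col6a5 and Col9a2 had the order of that sum among the WT libraries. Astrocyte, oligodendrocyte lineage and microglia sums were also lower in all SCA1 KI than in all WT cerebellar libraries. The part of any of these cells in the 5 differences was not tested.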

How the results depend on the processing

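In all, 1205 values were recomputed under alternatives, some of them counts of members, which have no direction. The others were LFCs of members called in the main fit, and none of these changed direction. The 2 members higher in cortex became 6 with the trend on length and GC removed and 1 with each region on its own, and the 1 lower became 2 with edgeR, 4 with DESeq2 and 2 with each region on its own. The 5 members lower in cerebellum became 3 without the 2 libraries of highest choroid plexus sum. Of the differences between regions, the 4 positive became 7 with DESeq2 and 8 with the trend removed, and the 1 negative became 2 with DESeq2. Leaving out each library gave 1 to 3 members higher and 1 to 4 lower in cortex, 2 to 5 lower in cerebellum and 3 to 8 positive differences. In cortex these counts moved without WT library C (1 higher, 2 lower), WT library D (2 lower), SCA1 KI library A (1 higher), SCA1 KI library E (2 lower), SCA1 KI library F (1 higher, 4 lower) and WT cerebellum library 2 (3 higher, 2 lower). In cerebellum the lowest counts were without WT library 6 (3), SCA1 KI library 1 (2) and SCA1 KI library 5 (3), and the 8 positive differences were without WT cortex library B. The cause of these shifts was not tested. Between WT regions, 13 to 16 members were higher in cortex and 17 to 20 higher in cerebellum when a library was left out. There, Col13a1 was lost in 8 of 21 alternatives, edgeR and DESeq2 among them, Col11a2 and Col16a1 with the trend removed, Col4a4 without WT cortex library C or WT cerebellum library 4, and Col5a2 without WT cerebellum library 2. The median LFC over all genes moved by at most 0.08 under any scaling, with the trend removed in cerebellum. Col6a5, Col6a6, Col10a1 and other members near 20 counts or fewer rest on few reads (a count of 3 reads is 2.06 to 3.66 normalized counts). No paired analysis was possible because the library columns carry letters and numbers of their own and not the replicate numbers of the labels.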
